A study of Mus musculus with 6 samples.

Results

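Potassium channel genes were read in hippocampal messenger RNA of mice labelled PHF2 t/g and of wild-type (WT) mice. Every row of the count files whose symbol starts with Kcn was taken, except the noncoding RNA Kcnq1ot1. This gave 97 of 23282 rows: the pore-forming subunits, their auxiliary subunits, the regulator gene Kcnrg and 3 antisense or opposite-strand RNAs that carry a channel gene's name. Of these 97 rows, 88 had a count in at least 1 library and 69 passed the low-count filter and were tested. Both groups were C57BL/6 mice aged 16 weeks, with 3 PHF2 t/g libraries and 3 WT libraries. The label PHF2 t/g is read here as a transgene of Phf2, which encodes a demethylase of histone H3 lysine 9. The labels and files used here do not name its promoter, the cells that express it or the number of founder lines. The labels call the libraries separate samples but do not say that each came from its own animal, so p-values rest on library-to-library spread, which may be technical.

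Potassium channels let potassium leave the cell and thereby set the resting potential, end the action potential and limit how fast a neuron can fire. Voltage-gated (Kv) channels open on depolarisation, inward rectifiers and tandem-pore channels hold the resting potential, and calcium- or sodium-activated channels respond to ions that enter during firing. In the hippocampus these currents are known for shaping dendritic signals in pyramidal cells, fast firing in interneurons and potassium uptake by astrocytes. Auxiliary subunits bind the pore subunits and change their gating or their transport to the membrane.

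In PHF2 t/g hippocampus 2 of the 69 tested channel genes passed the test, both of the Kv1 family and in opposite directions. Kcna5, a delayed rectifier known from vascular smooth muscle, heart and microglia as well as neurons, rose 2.22-fold. Kcna6, a delayed rectifier of neurons, fell 1.26-fold. All other tested members missed the threshold, among them 3 with edgeR adjusted p between 0.0672 and 0.0896 and lower means in PHF2 t/g: Kcnk3, Kcnab3 and Kcnj4. These 2 calls are 2.90% of the tested members, near the 2.27% of all 12831 tested genes that passed (0.779% higher and 1.49% lower in PHF2 t/g). By edgeR's quasi-likelihood test 12 members had an unadjusted p under 0.05 (17.4%, against 14.7% of all tested genes). Of these, 4 were higher (5.80%, against 6.72% of all genes) and 8 lower (11.6%, against 7.95%). At an adjusted p of 0.10 edgeR called 5 members (7.25%, against 4.26% of all tested genes). Outside Kv1 edgeR called 0 of 64 members, with 10 at an unadjusted p under 0.05, whereas limma-voom called 0 and DESeq2 1 (Kcnj4), with 51 of its 81 rows given no adjusted p. Counts here are 3′ tags, so levels of different genes are compared without dividing by length. The annotation used for counting is unknown here, and a gene whose 3′ end it misses would read low or 0. Ranks by level are therefore approximate. Levels are CPM, tag counts per 1000000 of a TMM-scaled library, given as mean ± SD with n = 3 per group. Fold changes are PHF2 t/g over WT, and the threshold is a Benjamini-Hochberg adjusted p of 0.05 over all tested genes.

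Library totals were 6053363 to 8612720 counts in PHF2 t/g, against 5512171 to 8844718 in WT. Phf2 itself was at 35.5, 37.3 and 43.1 CPM in PHF2 t/g, against 38.3, 35.6 and 39.3 CPM in WT (edgeR adjusted p = 0.929), and a transgene without the endogenous 3′ end would not be counted in this row. Markers of CA1 summed to 463 to 535 CPM in PHF2 t/g, against 540 to 573 CPM in WT, a sum made up mostly of Mpped1 (418 ± 36.0 CPM in PHF2 t/g, 478 ± 22.9 CPM in WT), and the only called marker of 5, Wfs1, was higher in PHF2 t/g. Those of CA2 and CA3 summed to 164 to 167 CPM in PHF2 t/g, against 174 to 208 CPM in WT, with none of 4 tested called by edgeR. The dentate gyrus markers summed to 61.8 to 79.0 CPM in PHF2 t/g, against 54.5 to 72.1 CPM in WT, with Prox1 at no more than 8.76 CPM in any library. Markers of striatum also separated the groups, at 779 to 898 CPM in PHF2 t/g, against 595 to 692 CPM in WT, with 3 of 7 tested higher. Penk was at 234 ± 18.5 CPM in PHF2 t/g, against 142 ± 21.8 CPM in WT. Adora2a had a log2 fold change of −0.33 (edgeR adjusted p = 0.169), and the untested Drd2 had 1 count in PHF2 t/g and 3 in WT. Hypothalamus markers summed to 53.9 to 55.7 CPM in PHF2 t/g, against 3.62 to 4.54 CPM in WT, with 4 of 4 tested higher. Avp, Oxt, Irs4 and Trh had few WT counts (4, 11 and 17 for Trh) and entered the test through PHF2 t/g, which favours such calls. Among the untested, Hcrt and Pmch had lower means in PHF2 t/g and Gal a higher one. Leptomeninges markers separated the groups as well, at 153 to 171 CPM in PHF2 t/g, against 75.4 to 102 CPM in WT. Only 1 of 6 tested, Mgp, was called higher. Mgp was the largest part of this sum and of its difference, at 112 ± 7.26 CPM in PHF2 t/g, against 43.6 ± 8.05 CPM in WT. Col1a1, Col1a2, Igf2 and Slc6a13 had higher means in PHF2 t/g without a call, and Dcn a lower one. The sums of choroid plexus, endothelial and mural markers separated the groups too and are given beside the channels they touch. Thalamus and habenula markers overlapped (54.5 to 60.7 CPM in PHF2 t/g, 54.1 to 58.6 CPM in WT). In bulk tissue, fewer cells of a type and less RNA per cell cannot be told apart, and how far these cells and neighbouring tissues enter the channel results below was not tested. The ribosomal RNA row Rn45s was at 70797 ± 2947 CPM in PHF2 t/g, against 96139 ± 10533 CPM in WT. WT replicate 2 stood apart from the other WT libraries, with a chi-square per gene of 9.57 and 9.89 against them, where every other pair within a group was at 2.95 to 4.28. PHF2 t/g replicate 1 held 292 CPM of the choroid plexus transcript Ttr, against 1.29 to 4.47 CPM in the other libraries.

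The genes of the Kv1 calls lie side by side on chromosome 6 (GRCm38, minus strand), in the order Kcna5 (126532551 to 126535555), Kcna1 (126636463 to 126645801) and Kcna6 (126708328 to 126740834). The start sites of Kcna5 and Kcna6 are where the members with opposite calls begin, so the 250 bases before each, from RefSeq on build GRCm38.p6, are shown 5′ to 3′ with CG dinucleotides in capitals. They span chr6:126535556-126535805 for Kcna5 and chr6:126740675-126740924 for Kcna6, both on the minus strand, where the Kcna6 window precedes a listed start that lies within the outer limits of the gene.
Kcna5: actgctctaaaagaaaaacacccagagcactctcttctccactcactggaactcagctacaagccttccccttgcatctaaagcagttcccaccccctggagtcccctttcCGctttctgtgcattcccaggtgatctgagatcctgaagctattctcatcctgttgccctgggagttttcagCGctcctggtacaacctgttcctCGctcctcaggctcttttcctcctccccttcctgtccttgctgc
Kcna6: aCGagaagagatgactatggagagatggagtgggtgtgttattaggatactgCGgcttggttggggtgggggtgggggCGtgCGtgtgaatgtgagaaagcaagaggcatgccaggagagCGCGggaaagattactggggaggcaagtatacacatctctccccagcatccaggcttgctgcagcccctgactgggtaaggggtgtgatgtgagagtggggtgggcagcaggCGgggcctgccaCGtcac
The Kcna5 window holds 3 CG dinucleotides and 53.2% G or C, the Kcna6 window 8 and 58.8%. Over the 96 listed promoters of 71 channel genes the median was 7.5 CG dinucleotides and 58.8% G or C, against 6 and 52.4% over 32851 listed promoters of all genes. A TATA box (TATAAA, either strand) was in 3.12% of the channel promoters and 12.4% of all promoters, and in neither window shown. The cyclic AMP response element TGACGTCA was in 0 of the 96 channel promoters and 1.55% of all promoters. The Egr motif GCGTGGGCG was also in 0 of the 96, and in 0.536% of all promoters. These matches describe letters in 250-base windows and say nothing of binding.

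Kcna5 was at 9.10, 8.52 and 9.65 CPM in the PHF2 t/g libraries and 3.81, 3.76 and 4.69 CPM in the WT libraries. Each PHF2 t/g library was above each WT library, and the lowest PHF2 t/g value was well clear of the highest WT value. These levels rest on 82, 60 and 60 counts in PHF2 t/g, against 20, 32 and 31 counts in WT. The means were 9.09 ± 0.567 CPM in PHF2 t/g, against 4.09 ± 0.524 CPM in WT, a log2 fold change of 1.15 whose 95% interval was 0.70 to 1.61 (edgeR adjusted p = 0.00764). Leaving out PHF2 t/g replicate 1 ended the call (edgeR adjusted p = 0.0753), and DESeq2 gave this gene no adjusted p. Mural cell markers summed to 47.4 to 50.7 CPM in PHF2 t/g, against 31.5 to 44.7 CPM in WT. Of the 6, 2 were called higher (Notch3 and Abcc9). Pdgfrb and Vtn had higher means in PHF2 t/g without a call (log2 fold changes 0.56 and 0.23). Acta2 and Rgs5 had lower means, also without a call (−0.22 and −0.05). Microglia markers summed to 237 to 260 CPM in PHF2 t/g, against 237 to 314 CPM in WT, with none of 5 called by edgeR. The part of either cell type in the Kcna5 result was not tested.

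Kcna6 was the third most abundant channel gene. It was at 251, 275 and 284 CPM in PHF2 t/g, against 329, 371 and 323 CPM in WT. The groups did not overlap, although the gap between the highest PHF2 t/g library and the lowest WT library was smaller than the range within WT. It fell by 0.34 on the log2 scale (SE 0.082; edgeR adjusted p = 0.0363), from 341 ± 26.0 CPM in WT to 270 ± 17.2 CPM in PHF2 t/g. This call ended without any 1 of PHF2 t/g replicates 1, 2 and 3 (edgeR adjusted p = 0.292, 0.149 and 0.074), with library size alone (edgeR adjusted p = 0.13), without the robust fit (0.0713) and by limma-voom (0.0712). The opposite-strand gene Gm26673 overlaps Kcna6, and as the strand setting of the counting is unknown here, their tags cannot be told apart.

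Kcna1, which lies between Kcna5 and Kcna6 and encodes a channel of axons and nerve terminals, was at 216, 214 and 208 CPM in PHF2 t/g, against 206, 243 and 198 CPM in WT. The groups overlapped, and its 95% interval of log2 fold change was −0.20 to 0.16. Within each library, where scaling plays no part, there were 3.63, 3.10 and 3.40 Kcna5 counts per 100 Kcna6 counts in PHF2 t/g, against 1.16, 1.01 and 1.45 in WT. Against Kcna1, there were 4.22, 3.98 and 4.63 Kcna5 counts per 100 in PHF2 t/g, against 1.85, 1.55 and 2.37 in WT. The ratio to Kcna6 is a description only, since its genes were picked for their opposite calls and each already separated the groups.

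Within 600 kb of the Kcna5 start site, a window chosen after the calls were known, 8 genes were tested and only Kcna5 and Kcna6 passed. Ano2, a calcium-activated chloride channel gene on the other side of Kcna5, had a log2 fold change of 0.86 (edgeR adjusted p = 0.211). The nearest tested gene that is no channel, Ndufa9, a subunit of respiratory complex I, had a log2 fold change of 0.07. Ccnd2, a cyclin gene at the far end, had one of −0.20.

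**Figure D1:**
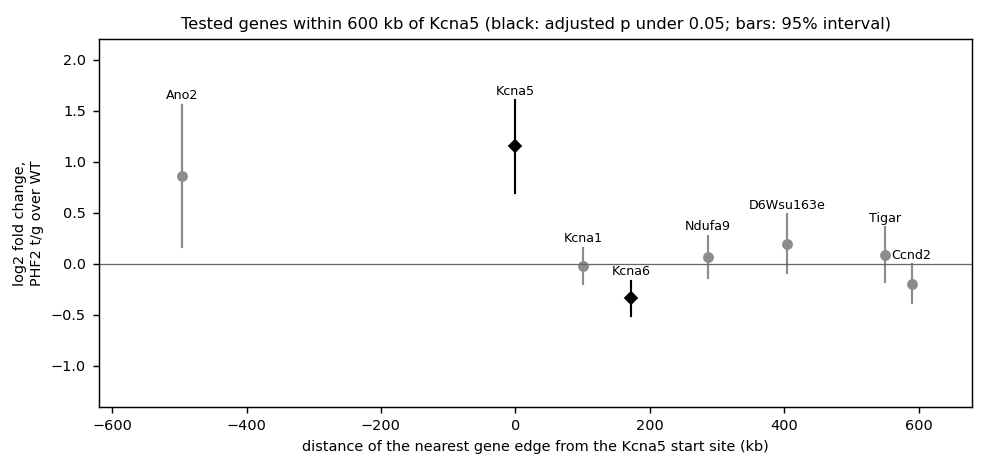
Log2 fold change (PHF2 t/g over WT, with 95% interval) of the 8 tested genes within 600 kb of the Kcna5 start site, by distance in kb. Kcna5 lies at 1.15 and Kcna6 at −0.34, with Kcna1 between them at −0.02.

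The other tested Kv1 genes did not pass. Kcna2, found with Kcna1 along axons, was at 185, 197 and 190 CPM in PHF2 t/g, against 194, 194 and 211 CPM in WT, with overlapping groups. Kcna4, which gives an inactivating current, was at 13.8, 11.5 and 12.5 CPM in PHF2 t/g, against 10.3, 9.99 and 10.9 CPM in WT. Its groups did not overlap, yet it missed the threshold (log2 fold change 0.28; edgeR adjusted p = 0.439). Kcna3 and Kcna10 had 3 and 1 counts over all libraries and Kcna7 had 0.

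Of the Kv7 genes, whose channels carry slow, non-inactivating currents, Kcnq5 was at 45.9, 36.2 and 43.8 CPM in PHF2 t/g, against 39.8, 34.9 and 42.2 CPM in WT. The groups overlapped (log2 fold change 0.11, 95% interval −0.14 to 0.36). Kcnq3 was at 1.93 ± 0.422 CPM in PHF2 t/g, against 1.41 ± 0.518 CPM in WT, and no tested Kv7 gene passed. The 10 most abundant members held 63.2% of all channel CPM. In all, 12 members exceeded 100 CPM, 26 lay between 10 and 100, 32 between 1 and 10, and 18 were above 0 but under 1 CPM.

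**Figure D2:**
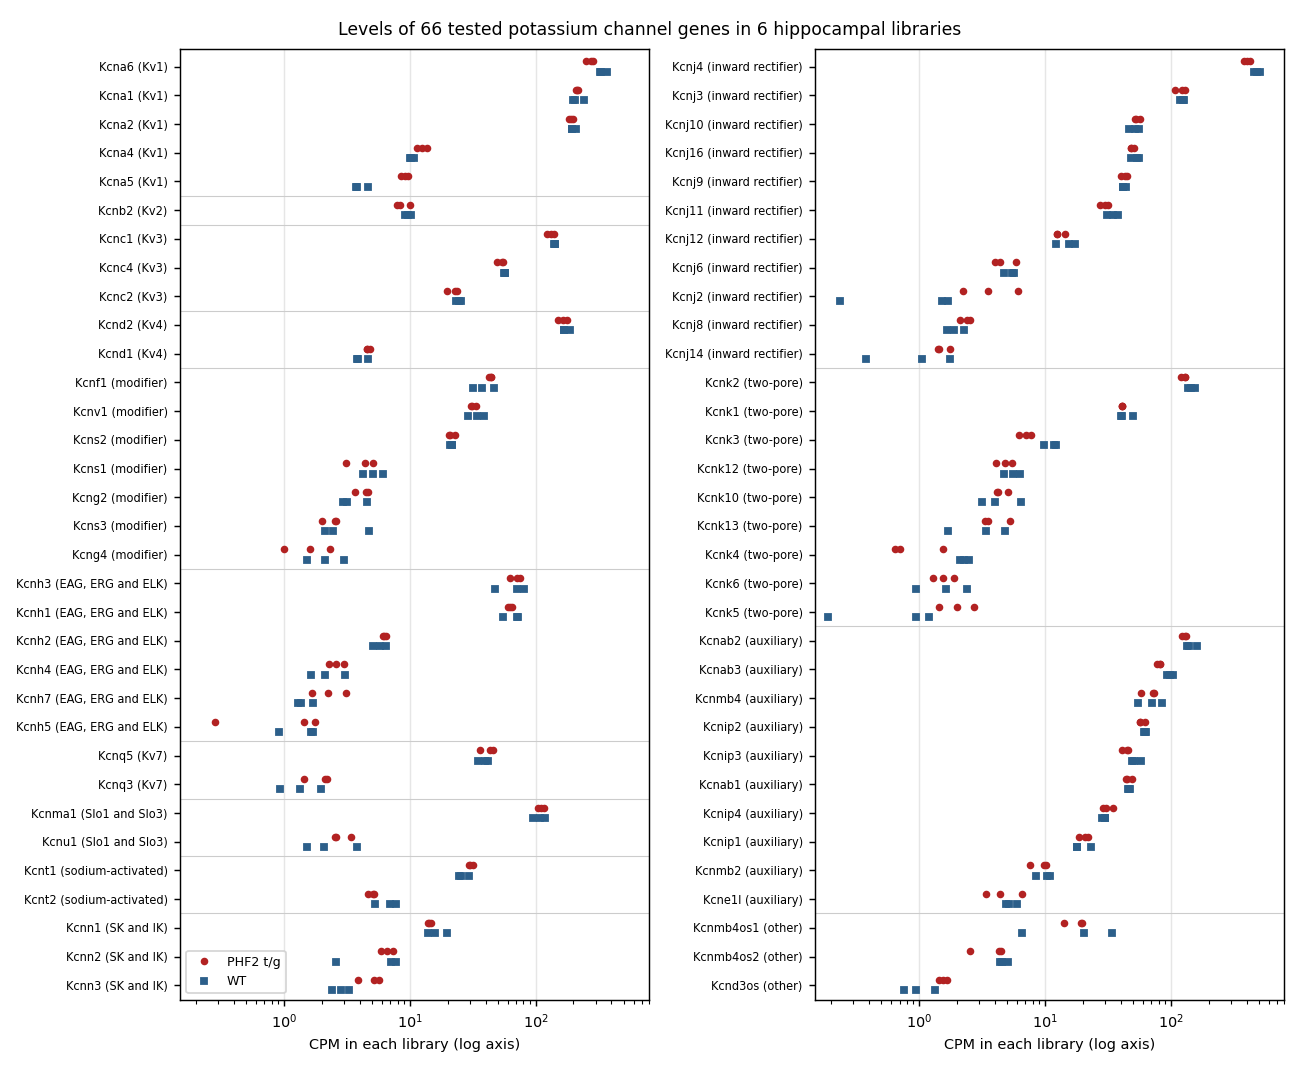
CPM of 66 tested members in each library on a log axis, ordered by subfamily and level, with PHF2 t/g as circles and WT as squares. Kcnj4 and Kcna6 stand highest among those drawn, and Kcna5 shows a gap between 8.52 CPM, the lowest PHF2 t/g library, and 4.69 CPM, the highest WT library.

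Precision followed level. The median SE of the log2 fold change was 0.085 for the 12 members over 100 CPM, 0.119 for the 26 between 10 and 100 CPM, and 0.331 for the 31 tested at 10 CPM or less. No member over 10 CPM had a log2 fold change larger in size than 0.34, while those at 10 CPM or less reached 1.85. Of all tested members 40 of 69 (58.0%) lay below 0, against 46.1% of all tested genes, with a median of −0.067 against 0.020. With library size alone 27 of 69 lay below 0 and the median was 0.033, where that of all genes was 0.121. Summed over all 97 rows, channel CPM was 3737, 3779 and 3866 in PHF2 t/g, against 4070, 4048 and 4033 in WT. Without TMM, channel counts per 1000000 of the library total were 3908, 3885 and 3970 in PHF2 t/g, against 3879, 3895 and 3936 in WT. The groups thus separate with TMM scaling and overlap without it.

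**Figure D3:**
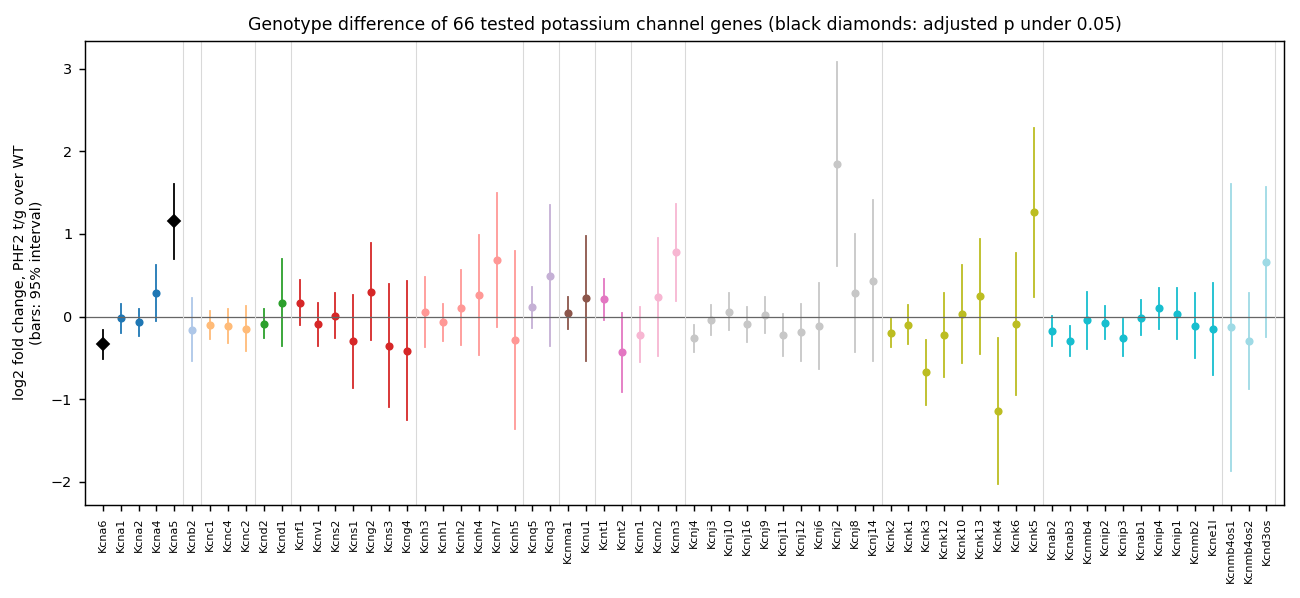
Log2 fold change of 66 tested members (PHF2 t/g over WT) with its 95% interval, by subfamily. The black diamonds are Kcna6 at −0.34 and Kcna5 at 1.15, and wide intervals belong mostly to members at 10 CPM or less, such as Kcnj2, and to Kcnmb4os1, whose WT libraries ran from 6.58 to 33.9 CPM.

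Of the Kv2 delayed rectifiers, which cluster on neuronal cell bodies, Kcnb2 was at 8.75 ± 1.09 CPM in PHF2 t/g, against 9.69 ± 0.578 CPM in WT. The Kv3 genes, whose channels close fast and let interneurons fire rapidly, all 4 lay below 0, and none passed. With library size alone they ran from −0.137 to −0.003, the latter practically at 0. The most abundant, Kcnc1, was at 124, 139 and 133 CPM in PHF2 t/g, against 142, 143 and 140 CPM in WT, just without overlap. Kcnc2 and Kcnc4 had log2 fold changes of −0.15 and −0.11. Markers of interneurons, which express Kv3 channels, summed to 388 to 415 CPM in PHF2 t/g, against 396 to 454 CPM in WT. Of the 6, Gad2 rose and Sst fell, and Gad1 and Vip had log2 fold changes of 0.03 and 0.05. Reln was at 32.1 ± 2.02 CPM in PHF2 t/g, against 23.1 ± 3.37 CPM in WT (edgeR adjusted p = 0.0711). Pvalb, the marker of the fast-spiking cells, was at 75.2 ± 7.94 CPM in PHF2 t/g, against 97.7 ± 7.32 CPM in WT (edgeR adjusted p = 0.0541). The part of these cells in the Kv3 values was not tested.

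Kcnd2, the main subunit of the dendritic A-type current of pyramidal cells, was at 177, 164 and 150 CPM in PHF2 t/g, against 187, 167 and 168 CPM in WT. The groups overlapped (log2 fold change −0.09, 95% interval −0.26 to 0.09). Kcnd1 was at 4.64 ± 0.161 CPM in PHF2 t/g, against 4.13 ± 0.491 CPM in WT. Kcnd3 had 6 counts in all, fewer than the opposite-strand row Kcnd3os beside it, which was at 1.56 ± 0.109 CPM in PHF2 t/g, against 1.01 ± 0.294 CPM in WT.

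The electrically silent modifier subunits, which form channels only together with Kv2 subunits, were led by Kcnf1 at 43.9, 42.3 and 43.9 CPM in PHF2 t/g, against 37.5, 31.7 and 46.8 CPM in WT. The PHF2 t/g libraries lay inside the WT range. The 7 tested modifiers ran from −0.41 to 0.30 on the log2 scale and none passed. Among the EAG, ERG and ELK channels, Kcnh3 was at 62.2, 70.9 and 74.5 CPM in PHF2 t/g, against 71.4, 47.6 and 80.7 CPM in WT, with WT replicate 2 the lowest library. Kcnh1, of the EAG type, was at 62.8 ± 1.82 CPM in PHF2 t/g, against 66.2 ± 9.29 CPM in WT. All 6 tested members of this subfamily missed the threshold.

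Channels that respond to ions entering the cell did not pass either. Kcnma1, the large-conductance (BK) channel that calcium and voltage open together, was at 105, 111 and 116 CPM in PHF2 t/g, against 95.2, 119 and 108 CPM in WT, a log2 fold change of 0.04 with a 95% interval of −0.16 to 0.24. Kcnt1, a sodium-activated channel, was at 30.3, 31.7 and 29.8 CPM in PHF2 t/g, against 29.7, 24.7 and 25.4 CPM in WT, just without overlap (edgeR adjusted p = 0.442). Small-conductance calcium-activated channels contribute to the hyperpolarisation after an action potential. Of their genes, Kcnn1 was at 14.2, 14.8 and 14.0 CPM in PHF2 t/g, against 15.8, 19.9 and 14.1 CPM in WT. Kcnn3 was at 5.22, 5.68 and 3.86 CPM in PHF2 t/g, against 2.86, 3.29 and 2.42 CPM in WT, without overlap (log2 fold change 0.78, SE 0.280; edgeR adjusted p = 0.172).

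The inward rectifiers had the second most abundant member of all. Kcnj4, a strong rectifier of forebrain neurons, was at 382, 401 and 429 CPM in PHF2 t/g, against 456, 488 and 511 CPM in WT. Each PHF2 t/g library was below each WT library (log2 fold change −0.26, SE 0.078; edgeR adjusted p = 0.0896). DESeq2 called it lower (DESeq2 adjusted p = 0.0457). Kcnj2, another strong rectifier, which in brain is also known from capillary endothelium, was at a low level. Among members past the low-count filter, it had the largest fold change with all 6 libraries in the fit. With 9, 2 and 10 counts in WT, it entered the test through PHF2 t/g, which favours a difference of that sign. It was at 2.22, 3.55 and 6.11 CPM in PHF2 t/g, against 1.71, 0.23 and 1.51 CPM in WT, without overlap but with a wide spread in both groups. The log2 fold change was 1.85, with a 95% interval of 0.61 to 3.08 (edgeR adjusted p = 0.131). Without WT replicate 2, the library with the lowest value, it was 1.24, below the 1.39 of Kcnk5 in the same fit, and with 1 library left out it ran from 1.24 to 2.22. Its chromosome 11 neighbour Kcnj16 had a log2 fold change of −0.10.

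Endothelial markers, given here because of Kcnj2, summed to 133 to 143 CPM in PHF2 t/g, against 101 to 118 CPM in WT. Of the 6, 3 were called higher (Flt1, Ly6c1 and Vwf). Vwf had 3, 8 and 8 counts in WT and entered the test through PHF2 t/g, which favours such a call. Cldn5, the tight-junction marker of the same list, had a lower mean in PHF2 t/g, at 11.7 ± 0.926 CPM in PHF2 t/g, against 17.9 ± 3.87 CPM in WT (edgeR adjusted p = 0.0791). The part of endothelium in the Kcnj2 value was not tested.

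G-protein-activated rectifiers, which inhibitory transmitter receptors open, include Kcnj3 and Kcnj9, whose groups overlapped. Kcnj3 was at 123, 130 and 108 CPM in PHF2 t/g, against 118, 127 and 126 CPM in WT, and Kcnj9 at 42.9 ± 2.29 CPM in PHF2 t/g, against 42.4 ± 1.17 CPM in WT. Kcnj11, the pore of the ATP-sensitive channel, was at 29.7 ± 2.08 CPM in PHF2 t/g, against 34.6 ± 3.32 CPM in WT (edgeR adjusted p = 0.397). The astrocyte channels Kcnj10 and Kcnj16, which take up potassium released by neurons, were at 54.0 ± 3.06 and 49.4 ± 1.69 CPM in PHF2 t/g, against 51.6 ± 4.83 and 52.7 ± 3.62 CPM in WT. Their 95% intervals of log2 fold change were −0.16 to 0.28 and −0.31 to 0.12. Astrocyte markers summed to 2034 to 2377 CPM in PHF2 t/g, against 1918 to 2281 CPM in WT, with none of 6 called by edgeR.

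Kcnj13, a channel of the choroid plexus, had 24, 3 and 2 counts in PHF2 t/g, against 0, 0 and 1 counts in WT and was below the filter. The summed ratio was 26.5, with a 95% counting interval of 4.40 to 1084, and 24 of the 29 PHF2 t/g counts came from replicate 1, the library rich in Ttr. Choroid plexus markers summed to 14.6 to 331 CPM in PHF2 t/g, against 8.62 to 12.8 CPM in WT, with none of 3 tested called by edgeR. In PHF2 t/g replicates 2 and 3 Clic6 was at 5.68 and 8.69 CPM, against 2.09 to 3.64 CPM in WT. Ttr was at 3.69 and 1.29 CPM there, against 2.27 to 4.47 CPM in WT. Kcne2, another gene of that epithelium, had 5 counts in PHF2 t/g, all in replicate 1, and 2 in WT, all in replicate 1. Intervals from counts cover counting error only. Kcnj8, the pore of the pericyte ATP-sensitive channel, was at 2.11, 2.56 and 2.41 CPM in PHF2 t/g, against 2.28, 1.88 and 1.66 CPM in WT, with overlapping groups.

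Tandem-pore channels carry background potassium currents. Kcnk2, a mechanically gated member also opened by lipids, was at 122, 130 and 130 CPM in PHF2 t/g, against 137, 144 and 157 CPM in WT, without overlap (log2 fold change −0.20, SE 0.083; edgeR adjusted p = 0.256). Kcnk3, an acid-sensitive member, was at 7.77, 7.10 and 6.27 CPM in PHF2 t/g, against 11.8, 12.3 and 9.84 CPM in WT. Again each PHF2 t/g library was below each WT library, and the gene missed the threshold (log2 fold change −0.68, SE 0.187; edgeR adjusted p = 0.0672). The opposite-strand gene Gm9899 overlaps Kcnk3.

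Kcnk4 and Kcnk5 were at very low levels, with differences of opposite sign that did not pass. Kcnk4 had 14, 5 and 4 counts in PHF2 t/g, and Kcnk5 had 1, 8 and 8 counts in WT. Each entered the test through its higher group, which favours a difference of that sign. Kcnk4, like Kcnk2 gated by stretch, was at 1.55, 0.71 and 0.64 CPM in PHF2 t/g, against 2.47, 2.11 and 2.27 CPM in WT (edgeR adjusted p = 0.185). Kcnk5, an alkali-activated member, was at 1.44, 1.99 and 2.74 CPM in PHF2 t/g, against 0.19, 0.94 and 1.21 CPM in WT (edgeR adjusted p = 0.216). Neither pair of groups overlapped. With 1 library left out, the log2 fold change of Kcnk4 ran from −1.72 to −0.95 and that of Kcnk5 from 0.89 to 1.61. Kcnk13, found in microglia, was at 4.04 ± 1.06 CPM in PHF2 t/g, against 3.32 ± 1.57 CPM in WT.

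**Figure D4:**
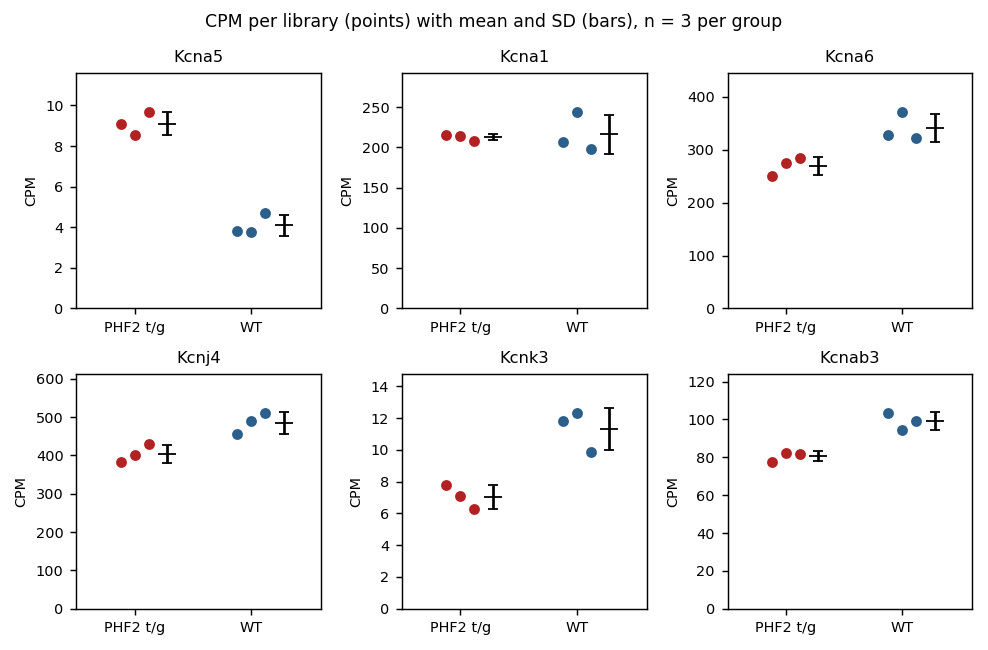
CPM per library with mean and SD (n = 3 per group) for Kcna5, Kcna1 and Kcna6 and for the 3 members closest to the threshold. The groups of Kcna5, Kcna6, Kcnj4, Kcnk3 and Kcnab3 do not overlap, while those of Kcna1 do.

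Auxiliary subunits were mostly a little below 0, in 8 of 10 tested with TMM and 5 of 10 with library size alone, and none passed. Kcnab3, a beta subunit of Kv1 channels, was at 77.5, 82.4 and 81.7 CPM in PHF2 t/g, against 104, 94.2 and 99.3 CPM in WT. The groups were well separated (log2 fold change −0.30, SE 0.088; edgeR adjusted p = 0.0873), and the gene passed without WT replicate 2 (edgeR adjusted p = 0.037). The antisense gene Kcnab3os overlaps it. Kcnab2, the most abundant beta subunit, was at 132, 123 and 130 CPM in PHF2 t/g, against 163, 139 and 133 CPM in WT (log2 fold change −0.18; edgeR adjusted p = 0.371). Kcnab1 was at 46.0 ± 2.52 CPM in PHF2 t/g, against 46.6 ± 0.885 CPM in WT.

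Kcnip3, a calcium sensor that binds Kv4 channels and is also known as a transcriptional repressor, was at 41.3, 45.0 and 45.7 CPM in PHF2 t/g, against 48.9, 50.9 and 57.8 CPM in WT, without overlap (log2 fold change −0.26; edgeR adjusted p = 0.249). The other Kv4 partners of its family, Kcnip1, Kcnip2 and Kcnip4, had log2 fold changes of 0.04, −0.08 and 0.10. Kcnmb4, the neuronal beta subunit of the BK channel, was at 73.2, 57.7 and 71.9 CPM in PHF2 t/g, against 85.5, 54.6 and 70.8 CPM in WT. Kcnmb4os1, an RNA on its opposite strand, was at 19.8, 14.2 and 19.5 CPM in PHF2 t/g, against 33.9, 6.58 and 20.3 CPM in WT. The libraries thus stood in the same order within each group for both rows, whose tags cannot be told apart without strand.

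Over all tested members the groups did not overlap in 18 of 69, 7 with PHF2 t/g above WT and 11 below. This is 26.1% of the members, against 20.6% of all tested genes, of which 10.1% lay above and 10.4% below. At the lowest levels 9 rows had no count in any library, among them Kcna7, Kcnv2, Kcnj1, Kcnk9, Kcnk15, Kcnk16, Kcnk18 and Kcne1. A count of 0 over all libraries allows up to 0.0704 CPM, at 3 counts in all. A further 19 rows had counts but stayed below the filter.

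Genes that work with potassium channels but carry other names were taken as a list of 29, drawn up with earlier results of these data known, of which 28 were tested and Lrrc52 had no count. In PHF2 t/g 1 rose, 2 fell and 25 did not pass, or 10.7% called against 2.27% of all tested genes. Cntn2, an adhesion molecule that gathers Kv1 channels beside the node of Ranvier, was at 84.9, 97.8 and 93.2 CPM in PHF2 t/g, against 112, 132 and 116 CPM in WT (log2 fold change −0.39; edgeR adjusted p = 0.0312). Each PHF2 t/g library was below each WT library. Oligodendrocyte markers, given here because Cntn2 is also made by these cells, summed to 2224 to 2266 CPM in PHF2 t/g, against 1996 to 2263 CPM in WT, with 2 of 6 (Mag and Opalin) called lower and their part in the Cntn2 value not tested.

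Abcc9, the sulfonylurea receptor that pairs with Kcnj8 in pericytes, was at 5.55, 4.12 and 5.63 CPM in PHF2 t/g, against 2.09, 1.76 and 2.87 CPM in WT (log2 fold change 1.19; edgeR adjusted p = 0.0433). It is itself among the mural markers given beside Kcna5, and Kcnj8 had a log2 fold change of 0.28 (SE 0.343; edgeR adjusted p = 0.756). Leaving out any PHF2 t/g library ended the calls of Cntn2 and Abcc9. Without PHF2 t/g replicate 1 the edgeR adjusted p was 0.27 for Cntn2 and 0.268 for Abcc9. The call of Cntn2 also ended without WT replicate 3 (edgeR adjusted p = 0.0553), and that of Abcc9 without WT replicate 1 or 2 (edgeR adjusted p = 0.078 and 0.0899).

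**Figure D5:**
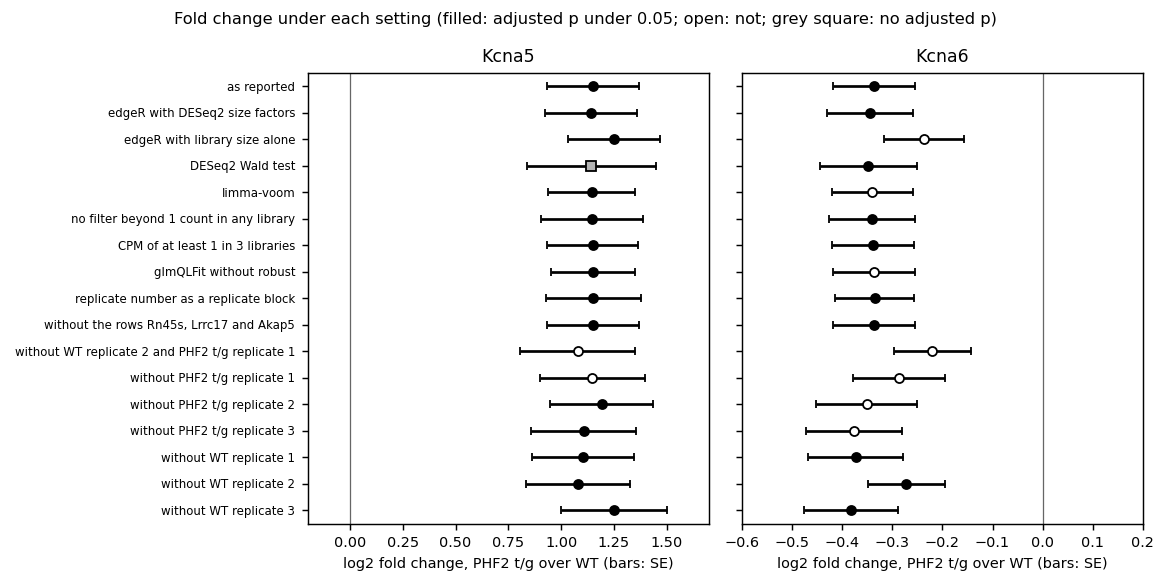
Log2 fold change (PHF2 t/g over WT, bars SE) of Kcna5 and Kcna6 under each processing setting, filled where the adjusted p was under 0.05 and a grey square where DESeq2 gave none. Kcna5 stays between 1.08 and 1.25 and Kcna6 between −0.38 and −0.22, and more of the Kcna6 points are open.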

How the data were processed

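Hippocampal RNA was sequenced as 6 libraries of 3′ ends with the QuantSeq kit, per the labels' protocols. The authors deposited raw counts of 23282 gene symbols for each library. Bowtie2, edgeR and build mm10 were used, per the submitters' processing notes; the labels used here do not state versions, annotation, counting program or strand setting. Groups and replicate numbers came from the sample titles. The members, lists and tests were chosen with earlier results of these data known.

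Of the 23282 rows, the 12831 passing filterByExpr set the library sizes, were scaled by TMM and tested for genotype alone with edgeR 4.0.16 (R 4.3.3), using estimateDisp, glmQLFit with robust = TRUE and glmQLFTest, and p-values were adjusted by Benjamini-Hochberg at 0.05. The procedure was tested on simulated data. Alternatives used DESeq2 1.42.0, limma-voom (limma 3.58.1), other scalings and filters, an adjusted p of 0.10, a replicate block and libraries left out. No pair of libraries of a group agreed within sampling noise (chi-square per gene 2.95 to 4.28, and 9.57 and 9.89 for the pairs with WT replicate 2). Named members were those with an unadjusted p under 0.05, the highest of each subfamily, the 10 of highest level, and 6 markers of other cells; any other gene named was picked with its values in view. Some members and partner genes are counted in the totals but not reported here by name. Coordinates and promoters are RefSeq on GRCm38.p6, to which all 97 symbols matched; strands and overlapping genes are from GENCODE M21. Depth was 5512171 to 8844718 counts per library, and floors and intervals from counts (3 counts, 95%) cover counting error only.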

Additional observations from a re-analysis of the deposited data

How the results depend on the processing

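Of all tested genes 291 passed, against 162 by limma-voom, 606 without the low-count filter, 149 without the robust fit, 547 at an adjusted p of 0.10, 140 without both PHF2 t/g replicate 1 and WT replicate 2, and 49 to 392 with 1 library left out. Calls were 34.4% higher in PHF2 t/g with TMM (100 higher, 191 lower), 74.7% with library size alone (207 and 70) and 18.5% by DESeq2 (50 and 220). The 2 called channel genes became 1 (Kcna5) without the robust fit, under library-size scaling and by limma-voom. They became 6 without the filter (Kcnj13 and Kcnj2 higher, Kcnj4 and Kcnk3 lower, beside Kcna5 and Kcna6) and 5 at an adjusted p of 0.10. The count was 0 without those libraries, where Kcna5 kept a log2 fold change of 1.08 (edgeR adjusted p = 0.0655) and 12 members had an unadjusted p under 0.05, and 0 to 3 with 1 library left out. DESeq2 called Kcna6 and Kcnj4 and gave no adjusted p for Kcna5. The 3 called partner genes became 1 by limma-voom, 1 under library-size scaling, 0 without the robust fit, 0 without both libraries, and 0 to 2 with 1 left out. The median of the tested members was −0.067, and 0.033 with library size alone; relative to all genes it was −0.088 under both, but −0.0499 by limma-voom, −0.0458 without PHF2 t/g replicate 2 and −0.0335 without PHF2 t/g replicate 3. The median itself was −0.079 without both libraries and −0.069 to −0.015 with 1 left out. Between 67 and 88 members were tested under the alternatives. With the replicate number as a replicate block 2 members passed (Kcna5 at 1.15, Kcna6 at −0.34), and 299 genes. The deviations of same-numbered libraries correlated at −0.00445, 0.123 and 0.0846 (Pearson's r across genes), so the numbers were not taken to pair the samples.

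Signs of uncalled members near 0 turned. With library size alone Kcna1 was 0.0786, Kcna2 0.0331, Kcnd2 0.0167 and Kcnj16 0.00516. Kcnmb4os1 was 0.246 by limma-voom. Without both libraries Kcna1 was 0.0629 and Kcnh3 −0.0688. With any 1 library or these 2 left out, Kcna1 ran from −0.0900 to 0.0738, Kcnh3 from −0.143 to 0.222, Kcnma1 from −0.0469 to 0.159, Kcnj10 from −0.0148 to 0.144, Kcnk13 from −0.0295 to 0.567 and Kcnmb4os1 from −0.674 to 0.441. The cause of these shifts was not tested. At 10 CPM or less the median SE was 0.331, so small differences of such members were not detectable at this depth.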
